A study of Arabidopsis thaliana with 24 samples.

Results

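Pistils of 35S::PIF4 plants kept at normal temperature were compared with pistils of wild-type Col-0 plants kept at high ambient temperature, gene by gene. The comparison asks how much of the warm wild-type state was absent when PIF4 was overexpressed without warmth. It used 8 of the 24 RNA sequencing libraries of the series, chosen by their labelled genotype and temperature: 4 of 35S::PIF4 at nAT and 4 of Col-0 at hAT, each named by its records as a separate replicate. The nAT regime was 21 °C by day and 18 °C by night, and the hAT regime was 28 °C by day and 24 °C by night. Plants of the hAT groups grew at nAT until they started to flower and were then moved. All groups had 16 h of light at 150 µmol per square metre per second and 8 h of dark, and the tissue was the unfertilized pistil of flowers at stages 11 to 12. In 35S::PIF4 the Cauliflower mosaic virus 35S promoter, which is active in most plant tissues, drives PIF4 in plants with the wild-type PHYB gene; how many transgenic lines or pooled plants stand behind a library is not given in the sources. The other groups were phyB, the phyB-9 mutant that lacks functional phytochrome B, at both temperatures, Col-0 at nAT and 35S::PIF4 at hAT. Genotype and temperature both differ between the compared groups, so their parts in any difference cannot be told apart in this comparison.

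Phytochrome B is a red light receptor that also senses temperature. Its active form removes PHYTOCHROME-INTERACTING FACTOR 4 (PIF4), a bHLH transcription factor that binds G-box elements, and warmth reverts the active form, so that PIF4 gains activity. In seedlings PIF4 then raises auxin synthesis and cell elongation. A pistil before pollination holds ovules, and each ovule holds an embryo sac with an egg cell, a central cell and synergids. The synergids secrete LURE1 peptides, small cysteine-rich proteins that attract the pollen tube, under the control of the transcription factor MYB98.

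The genes that separated the groups most included the LURE1 genes, a tandem family on chromosome 5. Their promoters are shown because all 5 genes moved together. Each sequence holds the 250 bases before the gene start (TAIR10 coordinates; sequence of the RefSeq genome TAIR10.1), and capitals mark a match to GTAACNT, the element bound by MYB98, on either strand.
LURE1.1: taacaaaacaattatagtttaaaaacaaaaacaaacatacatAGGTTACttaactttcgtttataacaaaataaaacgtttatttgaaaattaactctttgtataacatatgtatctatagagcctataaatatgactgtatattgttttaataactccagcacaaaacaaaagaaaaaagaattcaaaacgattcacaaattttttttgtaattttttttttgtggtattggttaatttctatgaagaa
LURE1.2: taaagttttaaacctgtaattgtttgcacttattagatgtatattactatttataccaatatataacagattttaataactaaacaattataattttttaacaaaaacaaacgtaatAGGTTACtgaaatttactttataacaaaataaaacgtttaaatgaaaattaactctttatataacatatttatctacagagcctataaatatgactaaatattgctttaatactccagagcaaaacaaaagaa
LURE1.3: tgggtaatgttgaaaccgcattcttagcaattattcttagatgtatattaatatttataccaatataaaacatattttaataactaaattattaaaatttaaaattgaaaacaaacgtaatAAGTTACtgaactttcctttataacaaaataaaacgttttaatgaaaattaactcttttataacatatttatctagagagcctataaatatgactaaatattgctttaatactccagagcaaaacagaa
LURE1.4: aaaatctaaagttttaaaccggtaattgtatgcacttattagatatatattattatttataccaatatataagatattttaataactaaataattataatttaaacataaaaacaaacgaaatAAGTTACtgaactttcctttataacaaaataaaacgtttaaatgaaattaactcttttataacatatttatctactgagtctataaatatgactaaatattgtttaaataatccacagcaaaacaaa
LURE1.5: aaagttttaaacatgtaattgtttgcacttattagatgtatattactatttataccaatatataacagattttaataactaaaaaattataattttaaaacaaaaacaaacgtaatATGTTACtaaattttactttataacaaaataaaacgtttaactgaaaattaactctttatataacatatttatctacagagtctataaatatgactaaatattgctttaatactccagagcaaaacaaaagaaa
LURE1.1 lies on the minus strand, with this promoter at chr5:17370858-17371107. The others lie on the plus strand, at chr5:17473799-17474048 for LURE1.2, chr5:17477693-17477942 for LURE1.3, chr5:17484107-17484356 for LURE1.4 and chr5:17487838-17488087 for LURE1.5. The match began 127 to 134 bases before the gene start in LURE1.2 to LURE1.5 and 208 bases before it in LURE1.1. GTAACNT was found in 5 of 5 LURE1 promoters and in 2358 of 20393 promoters of tested protein-coding genes (11.6%). Among genes called lower in 35S::PIF4 at nAT the share was 14.4%, and among genes called higher it was 13.2%. The G-box CACGTG, searched on both strands of the same windows, was in 0 of 5 LURE1 promoters, in 7.26% of all promoters, in 6.24% of those of lower genes and in 7.02% of those of higher genes. These shares describe letters in the window and say nothing of binding.

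Pistils of 35S::PIF4 at nAT had many more genes below than above warm Col-0. Of 21312 tested genes, 1679 (7.88%) were lower and 378 (1.77%) were higher by at least 2-fold at an adjusted p under 0.05 in edgeR's quasi-likelihood test. The asymmetry grew with the size of the difference. At least 4-fold, 712 genes were lower and 55 higher, and at least 16-fold, 268 were lower and 6 higher. The lower genes were mostly of low abundance, with a median of 0.485 CPM (counts of a gene relative to the TMM-scaled size of its library) in 35S::PIF4 at nAT and 2.53 CPM in Col-0 at hAT. The higher genes had a median of 2.98 CPM against 1.01 CPM. Without the fold threshold 9882 genes (46.4%) passed, and the 8 libraries did not overlap between groups at 10445 genes (49%).

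Summed over the 1679 lower genes, the level was 7314, 8162, 7177 and 10339 CPM in replicates 1 to 4 of 35S::PIF4 at nAT and 22930 to 23393 CPM in Col-0 at hAT. Replicate 4 of 35S::PIF4 was the highest of its group, and without it 1870 genes were lower and 423 higher. Summed over the 378 higher genes, 35S::PIF4 had 12024 to 13527 CPM and Col-0 at hAT 5222 to 5319 CPM. Both sets of genes were chosen by this same comparison, so the separation of the sums was fixed by that choice. Of 20476 tested protein-coding genes 1596 were lower, and of 340 tested long noncoding RNAs 32 were lower. Of 48 tested miRNA loci, 2 were lower and 6 higher. Over all tested genes 7.88% were lower and 1.77% higher.

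As a single measure of difference in either direction, the distance of a library was taken from the mean of Col-0 at hAT. It was the root mean square difference in log2 CPM over all tested genes. This distance does not separate falls from rises, and it includes the spread between replicates. It was 0.863, 0.821, 0.885 and 0.73 in the 4 libraries of 35S::PIF4 at nAT (mean 0.825 ± 0.0685, SD, n = 4). In phyB at nAT it was 0.678 ± 0.00303 (SD, n = 4), with no library above 0.681. Every library of 35S::PIF4 at nAT lay farther from warm Col-0 than every library of phyB at nAT, by 0.147 on average (exact two-sided permutation test, p = 0.0286, the smallest that 4 against 4 allows). For scale, the Col-0 libraries at hAT lay 0.236 on average from the mean of their own other replicates. The mean was 0.507 in 35S::PIF4 at hAT and 0.526 in phyB at hAT. Col-0 at nAT lay farthest, at 1.31 ± 0.153 (SD, n = 4), so 35S::PIF4 at nAT was nearer to warm Col-0 than that group. Col-0 at nAT also stood apart in mean gene length, as given below.

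**Figure D1:**
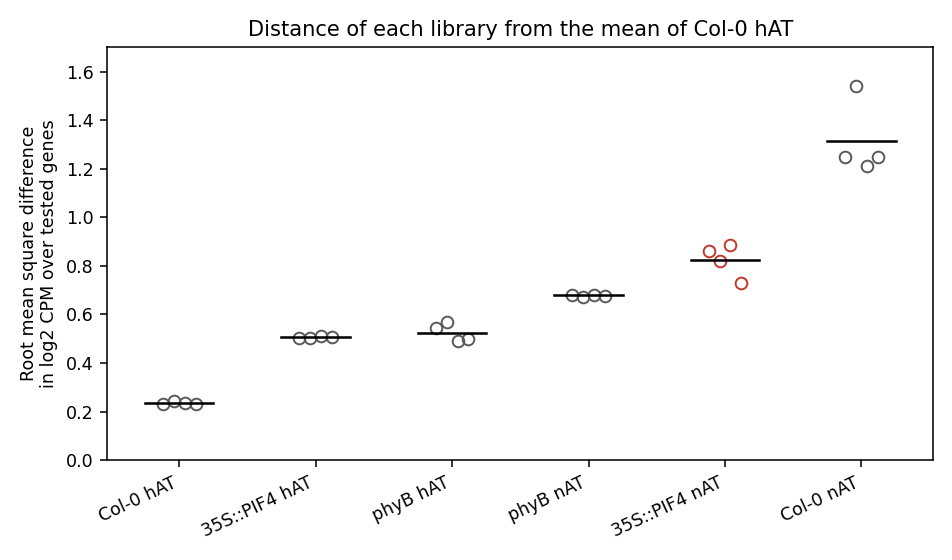
Distance of each library (points, log2 units) from the mean of Col-0 at hAT, by group, with the group mean as a bar. The 4 libraries of 35S::PIF4 at nAT lie at 0.73 to 0.885, above phyB at nAT, whose highest is 0.681. Col-0 at nAT lies highest, at a mean of 1.31.

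Depth did not separate the groups: 21280069 to 30184035 counts a library in 35S::PIF4 at nAT and 19868048 to 23916083 in Col-0 at hAT. The mean length of the gene behind a count was 2065 to 2141 bases in 35S::PIF4 and 2158 to 2190 bases in Col-0, which did not overlap, and Spearman's rho of log2 fold change with gene length was -0.038 across genes, which are not independent replicates. Replicates of 35S::PIF4 differed more among themselves (chi-square divided by its degrees of freedom, 2.33 to 11.7) than those of Col-0 (1.83 to 2.5), so no pair was a repeated library. Col-0 at nAT stood apart from all other groups in mean gene length (1612 to 1804 bases). It entered the shared fit and no contrast. Besides its distance, its levels are given only for genes whose level went with genotype and as sums over the egg cell and ECA1 lists. Tissue labels were checked with the floral regulators AGAMOUS (AG) and SEEDSTICK (STK), which specify carpels and ovules. AG was at 90 to 96.1 CPM in 35S::PIF4 and 85.1 to 88 CPM in Col-0, and STK at 193 to 228 CPM and 150 to 164 CPM.

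The overexpressed gene itself exceeded its warm wild-type level by a moderate factor. PIF4 (AT2G43010, chr2:17886101-17889087) was at 5.81, 6.39, 5.79 and 5.71 CPM in 35S::PIF4 at nAT and at 2.82, 2.09, 2.41 and 2.4 CPM in Col-0 at hAT. All 35S::PIF4 libraries were above all Col-0 libraries, with a 2.44-fold ratio of means (log2 fold change 1.28, SE 0.167, edgeR adjusted p = 5.12e-07). The sources do not say which part of the transgene transcript these counts include. PHYB, the receptor gene, overlapped between groups at 101 to 126 CPM and 102 to 107 CPM. Of 16 phytochrome and PIF pathway genes, only PIF4 was called (6.25% higher, against 1.77% of all genes, and none lower, against 7.88%). Without replicate 3 of 35S::PIF4 or replicate 2 of Col-0, 2 genes were called higher. PIF5, the closest homolog, was at 16.7 to 22.2 CPM against 10.6 to 12.6 CPM. Its log2 fold change of 0.70 stayed under the fold threshold.

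Genes that PIF4 induces in seedlings were called about as rarely as all genes. Of 12 tested, 1 was lower (8.33%, against 7.88% of all tested genes) and none was higher (against 1.77%). The libraries did not overlap at 6 of the 12, where the share over all genes was 49%. The list's median log2 fold change was 0.17 against 0.01 over all tested genes. In most alternatives, however, 1 gene was called higher. These were no filter, no Col-0 nAT libraries, and the length trend removed with or without a replicate block. The others left out replicate 1 or 4 of 35S::PIF4 or replicate 1, 2 or 4 of Col-0. YUC8, a seedling target that makes auxin, had 2.23 to 2.79 CPM against 2 to 2.96 CPM, overlapping throughout. HFR1, a bHLH that restrains PIFs, had 16.2 to 20.7 CPM against 16.8 to 19 CPM. PIL1, another target, was at 15.8 to 22.1 CPM against 8.04 to 10 CPM and just missed the fold threshold, which it passed with no filter, without the Col-0 nAT libraries, without replicate 1 or 4 of 35S::PIF4 or without replicate 2 or 4 of Col-0 (log2 fold changes of 1.00 to 1.06). PRE1, a small HLH protein that promotes elongation, also lay close to it (log2 fold change 0.97, SE 0.084). The gene called lower was FT, the mobile flowering signal, at 0.632, 1.13, 0.893 and 0.929 CPM in 35S::PIF4 and 9.94, 9.91, 9.6 and 10.1 CPM in Col-0. FT was thus lower by 11-fold (log2 fold change -3.44, SE 0.19, edgeR adjusted p = 3.21e-14), and it was also below phyB at nAT, which had 3.11 ± 0.793 CPM (SD, n = 4; log2 fold change -1.77, edgeR adjusted p = 3.49e-07).

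The clearest deficit was in synergid products. LURE1.3 (AT5G43513, chr5:17477943-17478393) was at 0, 0.0665, 0.0388 and 0.418 CPM in 35S::PIF4 at nAT and at 19.8, 18.6, 20 and 17.9 CPM in Col-0 at hAT. That is 12 counts in all against 1847. LURE1.2 (AT5G43510) was at 0.211, 0.166, 0.0777 and 0.186 CPM against 16.4, 14.4, 14.9 and 14 CPM. All 35S::PIF4 libraries were far below the lowest Col-0 library in both genes, by 146-fold for LURE1.3 (log2 fold change -7.26, SE 0.271, and -8.78 without replicate 4 of 35S::PIF4) and by 93.1-fold for LURE1.2 (-6.51, SE 0.32). LURE1.4 (AT5G43518), LURE1.5 (AT5G43525) and LURE1.1 (AT5G43285) had ratios of means of 78.8, 65.2 and 39. Without replicate 4 the log2 fold change of LURE1.1 moved from -5.32 to -5.97. The LURE1 genes are similar in sequence, so how their reads were divided among copies is uncertain. In bulk tissue, fewer cells of a type and less RNA per cell cannot be told apart.

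MYB98 (AT4G18770, chr4:10311030-10313104), the synergid regulator, was at 0.505, 0.699, 0.233 and 0.325 CPM against 2.75, 3.3, 3.64 and 3.99 CPM. The groups did not overlap, but the deficit was smaller than for its targets, at 7.76-fold (log2 fold change -2.91, SE 0.244, edgeR adjusted p = 1.74e-10). Of 12 attractant and synergid genes 1 was not tested. Of the 11 tested, 10 were called lower (90.9%, against 7.88% of all genes) and none higher. The median log2 fold change was -6.05 (-5.28 with the length trend removed, -6.28 without replicate 4 of 35S::PIF4). A member with counts mainly in the warm groups could pass the filter on low counts through those groups. The count and the median thus describe the tested members and support nothing further. The member not called was FERONIA (FER), a receptor kinase for pollen tube reception that is also expressed outside the embryo sac, at 195 to 209 CPM against 197 to 209 CPM. Its partner LORELEI (LRE) was lower, at 0 to 0.337 CPM against 0.426 to 0.973 CPM (log2 fold change -2.19, and -2.79 without replicate 1 of 35S::PIF4). Of the 17 genes that the study listed for pollen tube attraction, 15 were tested and 12 were lower; the study chose that list on these samples, so it is not independent evidence of direction.

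Against phyB at nAT, a comparison without the Col-0 libraries, 4.96% of all genes were lower in 35S::PIF4 at nAT, and all 5 LURE1 genes were among them. The log2 fold changes ran from -1.21 for LURE1.1 (edgeR adjusted p = 0.0472) to -3.15 for LURE1.3 (edgeR adjusted p = 2.05e-06). MYB98 was lower as well (-1.4, edgeR adjusted p = 0.000323). In phyB at nAT the LURE1 genes had group means of 0.711 to 1.63 CPM, between the compared groups.

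Egg cell genes followed the synergid genes. All 7 members were tested and called lower, against 7.88% of all genes. They too could pass the filter on low counts through the warm groups, so this count only describes them. Their summed level was 8.51 to 13.9 CPM in 35S::PIF4 at nAT against 120 to 126 CPM in Col-0 at hAT. The sum was low in Col-0 at nAT as well, at 6.58 to 8.76 CPM. EC1.3 (AT2G21750, chr2:9283367-9283774), which encodes a secreted protein that activates sperm, was at 0.421, 0.765, 0.427 and 0.743 CPM against 16.2, 16.2, 16.1 and 16.4 CPM. No library came near the other group (27.5-fold, log2 fold change -4.76, SE 0.201). EC1.1, EC1.2 and EC1.5 were 29.5-fold, 29-fold and 17.4-fold lower. EC1.4 differed less than its paralogs, at 6.66, 5.72, 5.71 and 7.06 CPM against 17.2, 16.4, 14.2 and 15.6 CPM. It fell under the fold threshold once the length trend of each library was removed (log2 fold change -0.45). ECS1 (AT1G31450) and ECS2 (AT2G35615), egg cell proteases that degrade LURE1 after fertilization, were 27.3-fold and 27.1-fold lower.

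Central cell genes split. HDG6 (FWA, AT4G25530), an imprinted homeobox gene, was at 0.168, 0.0333, 0 and 0 CPM against 3.13, 1.54, 2.28 and 2.79 CPM. FIS2 (AT2G35670), a Polycomb subunit, was at 0.0421, 0.133, 0.0388 and 0.418 CPM against 2.67, 3.72, 3.17 and 3.41 CPM. MEA (AT1G02580), its partner in the same complex, was at 0.2 to 0.464 CPM against 3.58 to 4.53 CPM, and the 3 genes were 48.4-fold, 20.5-fold and 12.5-fold lower without overlap. Single libraries carried part of this: the log2 fold change of HDG6 went from -5.48 to -7.05 without replicate 1 of 35S::PIF4, and that of FIS2 from -4.39 to -5.33 without replicate 4. AGL61 was also called lower (log2 fold change -1.75), whereas its MADS partner AGL80 had 1.35 to 2.33 CPM against 2.28 to 2.83 CPM and was not called. DME, the DNA glycosylase that demethylates imprinted genes in the central cell but is also expressed elsewhere, had 68.4 to 82.3 CPM against 87.1 to 103 CPM (log2 fold change -0.34, not called).

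**Figure D2:**
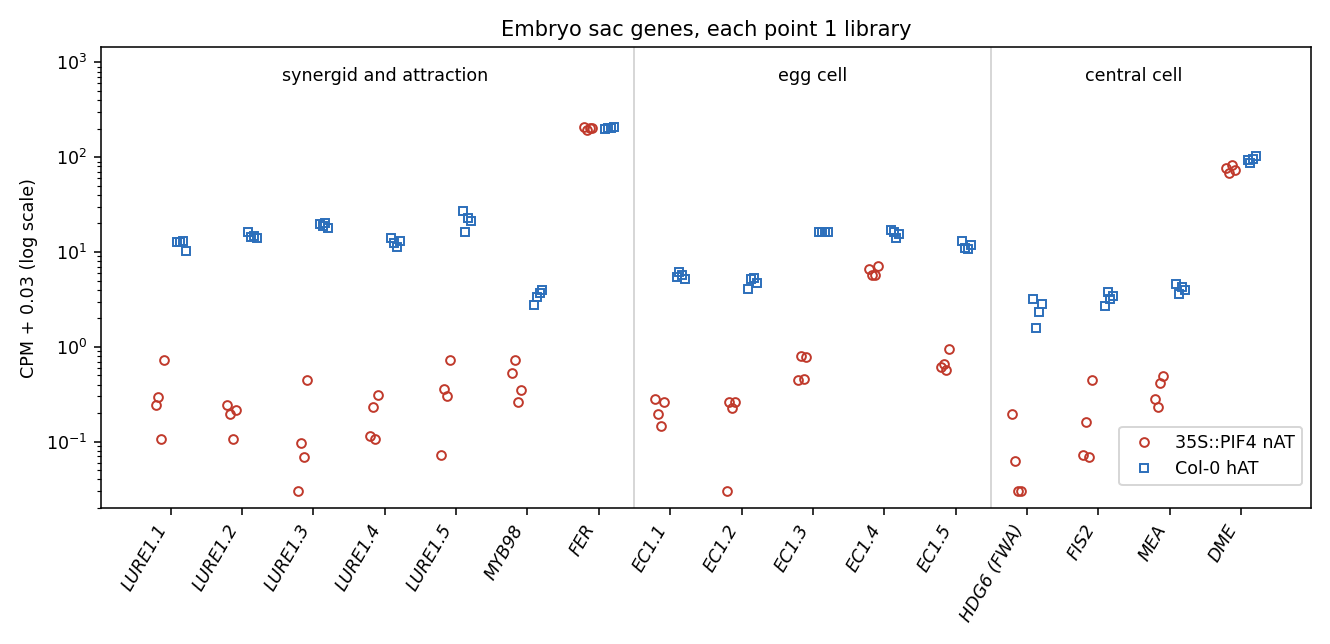
Levels of synergid, egg cell and central cell genes in each library (CPM plus 0.03, log axis), with 35S::PIF4 at nAT as circles and Col-0 at hAT as squares. Circles lie below squares by more than 10-fold for LURE1 and most EC1 genes, and both groups coincide for FER.

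Families of small secreted proteins were also read, several of them picked after their values were seen. Over all tested genes 7.88% were lower and 1.77% higher. A member with counts mainly in the warm groups passed the filter on low counts through those groups, so counts and medians over tested members describe them and support nothing. Of 85 ECA1 gametogenesis and DUF784 genes, cysteine-rich relatives of the EC1 genes, 37 were not tested and the 48 tested were called lower, at a median log2 fold change of -5.75 (-4.97 without the filter, -6.44 without replicate 4 of 35S::PIF4). Their summed level was 3.33 to 14.5 CPM against 457 to 475 CPM. Between these, Col-0 at nAT had 15.6 to 21 CPM, phyB at nAT 41.3 to 46.1 CPM and 35S::PIF4 at hAT 239 to 271 CPM. AT1G57760 was at 0, 0.0333, 0 and 0.232 CPM against 15.9, 17.8, 16.5 and 14.1 CPM (log2 fold change -7.95, and -9.79 without replicate 4 of 35S::PIF4), and AT2G21727 at 0.0421 to 0.117 CPM against 22.1 to 24.2 CPM. Of these 48 promoters, 25 (52.1%) held GTAACNT and none held the G-box. The element was in 16 of 108 promoters of tested defensin-like genes (14.8%) and in 9 of 36 of tested S1 genes (25%), the families that follow. The copies are alike, so single members are uncertain while the sum is less so.

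Of 248 defensin-like genes 137 were not tested. Of the 111 tested, 74 were lower and 3 higher (9 higher with the length trend removed), with a median log2 fold change of -3.29 (-2.37 without the filter, -2.26 in DESeq2). LCR19 (AT4G30074) had no count in any 35S::PIF4 library and 511 counts in Col-0 (4.38 to 5.96 CPM), which makes it at least 178-fold lower with a floor of 3 counts over the group. LCR65 (AT1G73607) had 1 count against 658, a ratio of 687 with a counting interval of 123 to 27200; the 1 count was in replicate 4. Intervals and floors cover counting error only.

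Of 66 S1 self-incompatibility genes, named for relatives that reject self pollen in poppy, 30 were not tested and 29 of 36 were lower. Only 6 of 45 thionin genes were tested, and these were lower, at a median log2 fold change of -5.03 that was -1.51 without the filter and -0.79 in DESeq2. Of 48 invertase and pectin methylesterase inhibitors, which restrain sugar and wall enzymes, 14 were not tested and 19 of 34 were lower, at a median of -1.32 (-0.58 without the filter). Of 34 RALF peptides, ligands of FERONIA-type receptors, 12 were not tested and 13 of 22 were lower. RALFL28 was at 0, 0.0665, 0 and 0.139 CPM against 10.9, 12.3, 10.4 and 9.37 CPM (log2 fold change -7.61, and -8.45 without replicate 4 of 35S::PIF4). RALFL34, the abundant member, was at 182 to 213 CPM against 125 to 129 CPM (log2 fold change 0.62, under the fold threshold). The summed RALF level overlapped between groups, at 334 to 422 CPM against 349 to 369 CPM. Among the largest falls by the naming rule were also the subtilase SBT3.11 (0.0388 to 0.299 CPM against 7.55 to 8.08 CPM), DD11, named for its loss in ovules without an embryo sac (0.2 to 1.02 CPM against 21.3 to 23.9 CPM), the metal-binding protein HIPP22 (0.0777 to 0.464 CPM against 12.6 to 13.8 CPM) and the mannanase MAN3 (0.0388 to 0.211 CPM against 4.07 to 6.26 CPM). The log2 fold change of SBT3.11 was -5.77, and -6.70 without replicate 2 of 35S::PIF4, and that of DD11 was -5.61, and -6.23 without replicate 4.

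**Figure D3:**
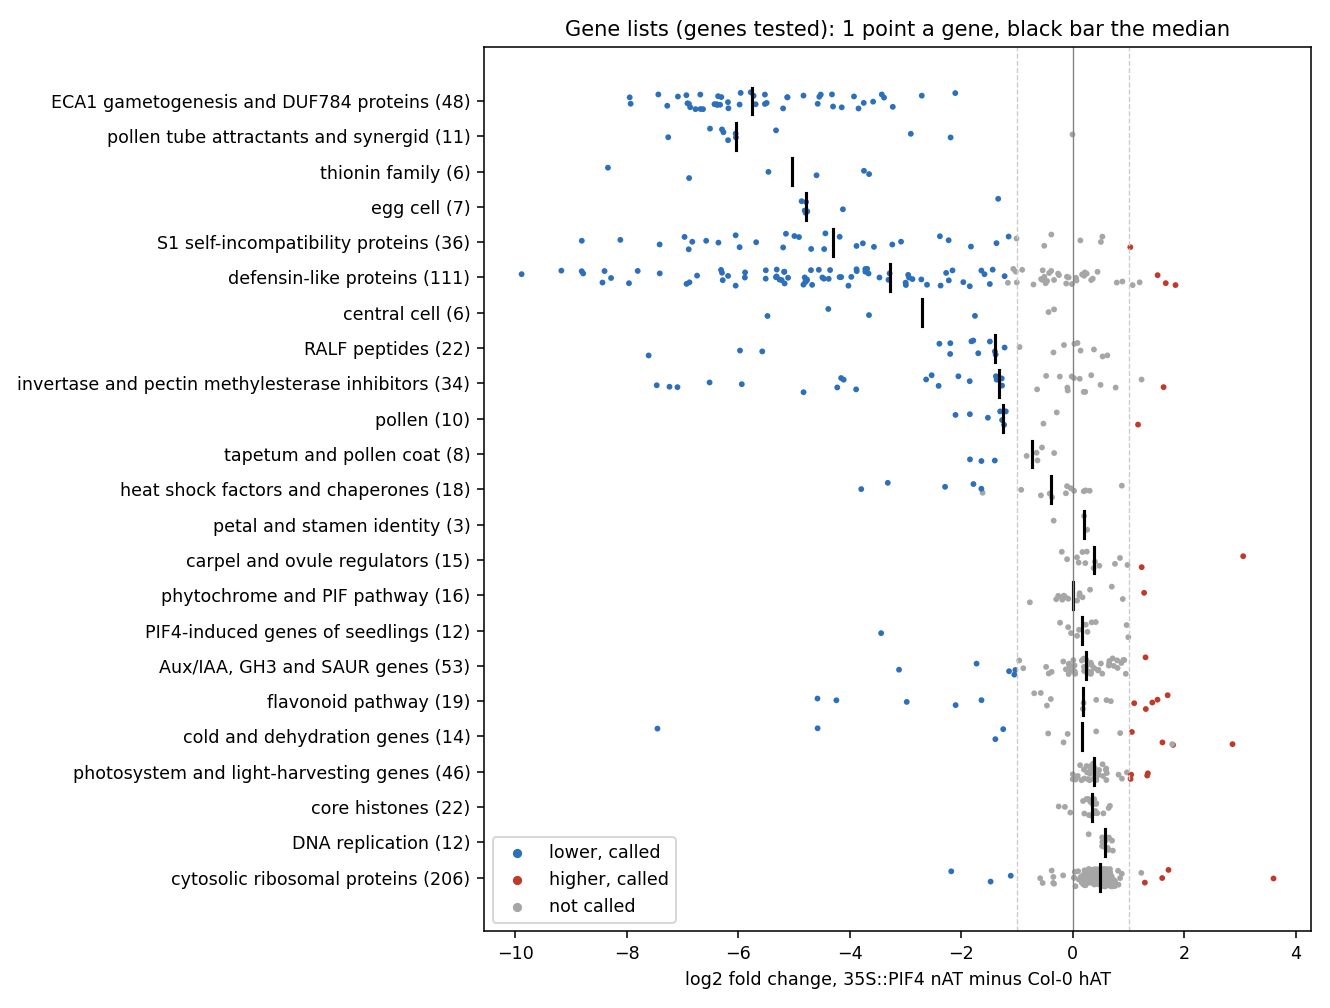
Log2 fold changes of 35S::PIF4 at nAT minus Col-0 at hAT for the genes of 23 lists (1 point a gene, the number tested in brackets, the black bar the median). Embryo sac and secreted peptide lists lie to the left, down to a median of -6.05, while regulators, hormone and housekeeping lists lie near 0.

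Markers of other floral tissues were read beside these groups. Pollen genes were lower in 7 of 10 cases (70%, against 7.88% of all genes) and higher in 1 (10%, against 1.77%). Their summed level was 83.1 to 154 CPM against 218 to 235 CPM. PME5 (VGD1), a pectin methylesterase of pollen tubes, was at 43.8, 28.9, 29.8 and 59.7 CPM against 99, 97.9, 98.6 and 93.3 CPM. Replicates 1 and 4 of 35S::PIF4 were higher than replicates 2 and 3, and all were below Col-0. The sperm fusion gene HAP2 went the other way, at 1.21 to 1.85 CPM against 0.309 to 0.891 CPM, though without replicate 1 of Col-0 it was not called. Tapetum and pollen coat genes were at 28.5 to 46.8 CPM against 60.8 to 64.4 CPM in sum, with 3 of 8 lower (37.5%). GRP17, a pollen coat oleosin, spread widely, at 8.85, 3.99, 3.22 and 17.4 CPM against 20.6 to 23 CPM; its log2 fold change of -1.4 was -2.02 without replicate 4, and it was not called without replicate 2 or 3 of 35S::PIF4 (edgeR adjusted p = 0.0591 and 0.0585) or in a fit of the 8 libraries alone. The petal and stamen identity genes AP1, AP3 and PI were not called, with sums of 63.3 to 68.5 CPM and 62.6 to 68.7 CPM. Whether RNA of pollen or anthers takes part in the differences of the other lists was not tested.

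Carpel and ovule regulators were not below the warm wild type. Of 15, none was lower (against 7.88% of all genes) and 2 were higher (13.3%, against 1.77%). In a fit of the 8 libraries alone 1 was higher. The summed level of the 15 was 803 to 875 CPM against 667 to 694 CPM. HEC1, a bHLH for the transmitting tract, was at 12.6, 13.5, 13.7 and 9.99 CPM against 5.34, 5.72, 5.5 and 4.69 CPM (log2 fold change 1.24, SE 0.146, edgeR adjusted p = 1.02e-07). HEC2 was at 0.233 to 0.548 CPM against 0 to 0.0774 CPM, near the limit of detection. ANT, which promotes ovule growth, was at 113 to 128 CPM against 85.3 to 87.6 CPM without reaching 2-fold.

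How much of the shortfall lay in genes that respond to warmth was read from genes called between hAT and nAT in phyB. That contrast shares no library with the comparison, but both came from 1 fit. The filter on low counts and the spread estimates thus used all 24 libraries. A gene with counts mainly in the warm groups could pass through them. Without the filter 746 of 1108 phyB warm-induced genes were lower. Of 986 genes higher at hAT in phyB (4.63% of those tested), 702 (71.2%) were lower in the 35S::PIF4 pistils than in warm Col-0. Another 12 (1.22%) were higher. Over all tested genes 7.88% were lower and 1.77% higher. The 702 lower genes made up 41.8% of all lower genes. Over the 986 genes the median log2 fold change was -1.75. Of 734 genes lower at hAT in phyB (3.44%), 111 (15.1%) were higher in 35S::PIF4 at nAT, 29.4% of all higher genes. Lower were 69 (9.4%), near the 7.88% of all genes. The median there was 0.15. Over the warm-induced genes the median log2 CPM was -0.95 to -0.35 in 35S::PIF4 at nAT, 1.46 to 1.55 in Col-0 at hAT and -0.4 to -0.31 in phyB at nAT.

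**Figure D4:**
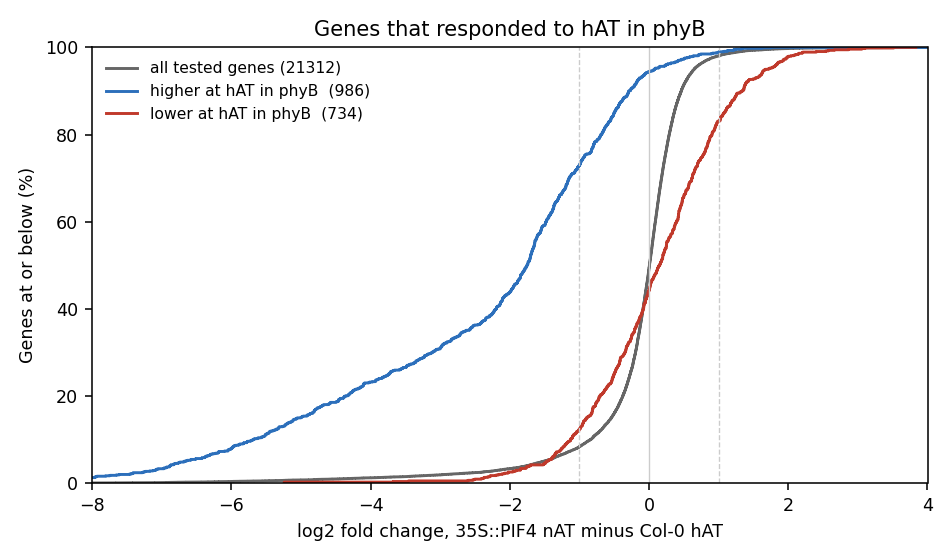
Cumulative share of genes (percent) by log2 fold change of 35S::PIF4 at nAT minus Col-0 at hAT, for all 21312 tested genes and for genes higher (986) or lower (734) at hAT in phyB. The warm-induced curve is shifted left, with a median of -1.75. The warm-repressed curve has a median of 0.15, close to that of all genes, but 15.1% of its genes were called higher, against 1.77% of all genes.

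Flavonoid genes moved in both directions. Of 5 genes of the steps to flavonols, 4 were higher in 35S::PIF4 at nAT. CHS (AT5G13930), chalcone synthase at the entry of the pathway, was at 1153, 1318, 1188 and 964 CPM against 528, 546, 534 and 546 CPM (2.14-fold, log2 fold change 1.1, SE 0.066). CHI1 and FLS1, the next isomerase and the flavonol synthase, rose by 1.43 and 1.31 on the log2 scale. CYP75B1 (TT7), the flavonoid 3′-hydroxylase, was at 163, 154, 166 and 106 CPM against 44.2 to 47 CPM. The groups did not overlap at any of the 4 genes. Over the whole flavonoid list 18 of 19 tested genes did not overlap, against 49% of all genes. The split by step was made within that list, and CHS, CHI1 and FLS1 were chosen after their values were seen.

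The reductases and the oxygenase on the way to proanthocyanidins, the seed coat tannins, were lower. BAN (AT1G61720), anthocyanidin reductase, was at 0.295, 0.366, 0.427 and 0.697 CPM against 8.51, 8.09, 8.33 and 8.52 CPM. DFRA, dihydroflavonol reductase, was at 0 to 0.133 CPM against 1.23 to 2.63 CPM, and LDOX, the following oxygenase, at 0.379 to 0.632 CPM against 3.25 to 4.69 CPM. Libraries did not overlap at these genes, and the log2 fold changes were -4.24, -4.58 and -2.98. The proton pump AHA10 and WRKY44 (TTG2), both needed for tannins in the seed coat, were lower too (log2 fold changes of -2.10 and -1.64). Between 35S::PIF4 and phyB at nAT the difference of BAN missed the threshold (log2 fold change -0.34, SE 0.31, edgeR adjusted p = 0.455). The tannin transporter DTX41 (TT12) was not called (log2 fold change 0.42). The laccase TT10 was called higher from low counts, at 0.621 to 1.63 CPM against 0.194 to 0.837 CPM, and was not called without replicate 2 of 35S::PIF4. In all, 5 of 19 tested flavonoid genes were higher (26.3%, against 1.77% of all genes) and 5 lower (26.3%, against 7.88%). The regulators TT2 and TT8 were not called.

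**Figure D5:**
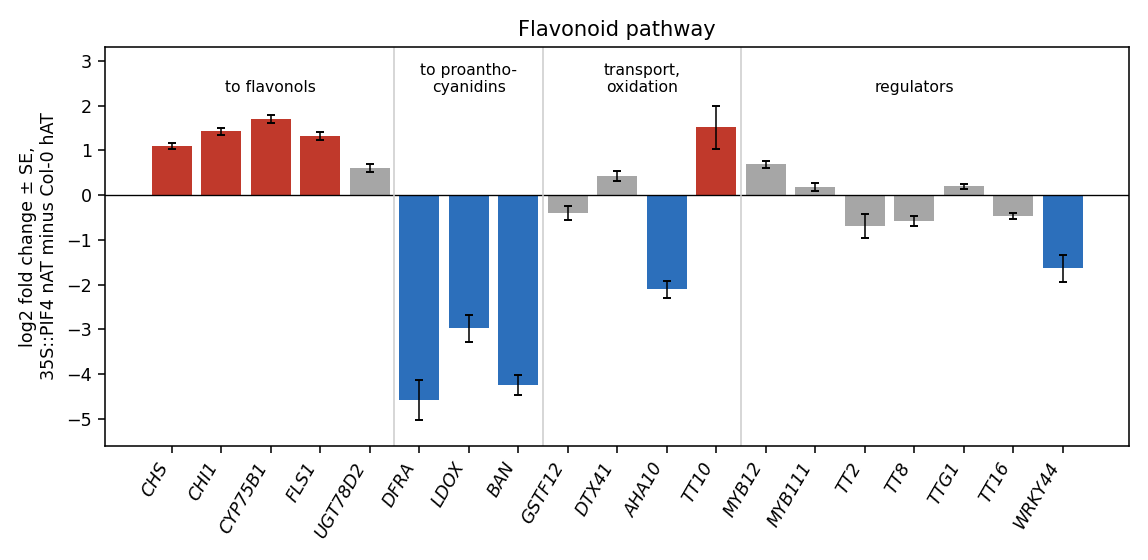
Log2 fold change (bars, with SE) of 19 flavonoid genes in 35S::PIF4 at nAT minus Col-0 at hAT, ordered from early steps to regulators. The 5 flavonol step genes stand above 0, by 1.1 for CHS, and DFRA, LDOX and BAN below 0, by -4.24 for BAN, while the later genes DTX41 and TT10 stand above 0.

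Some chaperone genes were lower, while the sum over the list was higher. Of 18 heat shock factors and chaperones, 5 were lower (27.8%, against 7.88% of all genes) and none higher (against 1.77%). MED37C (AT3G12580), a stress-inducible HSP70, was at 6.95, 10.5, 10.1 and 6.36 CPM against 123, 127, 115 and 110 CPM. This was a 14.1-fold difference without overlap (log2 fold change -3.79, SE 0.159, edgeR adjusted p = 1.8e-15). The level in 35S::PIF4 at hAT was 2274 ± 64 CPM (SD, n = 4), above both. HSP90-1, the inducible HSP90, was at 7.05 to 8.31 CPM against 36.2 to 37.7 CPM, and the co-chaperones FKBP65 and HOP3 were at 5.81 to 6.99 CPM against 21 to 23.4 CPM and at 6.7 to 8.74 CPM against 22.2 to 26.6 CPM. The constitutive HSP70 gene MED37E was not lower, at 2630 to 3064 CPM against 2206 to 2308 CPM, so that the summed list was higher (3141 to 3743 CPM against 2836 to 2909 CPM) although its median log2 fold change was -0.39. Small heat shock proteins summed to 60.5 to 66.3 CPM against 67.4 to 69.6 CPM. Of 19, 2 were lower (10.5%, near the 7.88% of all genes), and none was called in a fit of the 8 libraries alone.

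The rises were fewer than the falls. Among genes with a symbol and at least 5 CPM in the higher group, GRP3S (AT2G05380), a glycine-rich protein gene, rose most, at 9.39, 9.48, 10.3 and 7.76 CPM against 1.04, 0.512, 1.14 and 0.503 CPM. It was 11.5-fold higher (log2 fold change 3.52, SE 0.188, edgeR adjusted p = 1.64e-14), yet lower than in phyB at nAT, which had 26.2 ± 1.13 CPM (SD, n = 4; log2 fold change -1.5, edgeR adjusted p = 9.73e-10). WSCP, a water-soluble chlorophyll-binding protein of the transmitting tract, was the most abundant, at 1426, 1503, 1462 and 1349 CPM against 413, 398, 391 and 416 CPM. The subtilase SBT4.11 (log2 fold change 2.17), the methionine salvage enzyme ARD (2.08), the peroxidase PER33 (1.98) and the lipid transfer protein LTP10 (1.98) followed. GDU4, NFYA10, ELIP2, ACC2, HEI10, AtGH9C3 and ERF023 completed the rule's 15 largest rises together with COR15A and CYP75B1, at 1.67 to 1.85. The meiotic crossover factor HEI10, the plastid acetyl-CoA carboxylase ACC2 and the transcription factor subunit NFYA10 were also called higher than in phyB at nAT, where 1.18% of all genes were called higher, by 1.51, 1.53 and 1.71 on the log2 scale.

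Cold and dehydration genes moved in both directions. COR15A, a chloroplast cryoprotective protein, was at 19.1, 20.5, 22.1 and 19.6 CPM against 6.11, 6, 5.58 and 5.69 CPM (3.47-fold). RD29A, a desiccation-responsive gene, was at 4.46, 3.49, 5.44 and 3.9 CPM against 0.735, 0.512, 0.592 and 0.503 CPM. Both were above Col-0 in all libraries. Of the CBF regulators 2 were lower and DREB1A (CBF3) was not called (log2 fold change -0.09, SE 0.323). DREB1B (CBF1) had no count in 35S::PIF4 against 94 counts in Col-0 (at least 32.7-fold lower), and DREB1C (CBF2) was at 0 to 0.139 CPM against 1.1 to 2.44 CPM. KIN1 and COR47 were lower as well, at log2 fold changes of -1.39 and -1.25, while KIN2, the neighbour of KIN1, was higher (1.06). In sum 4 of 14 were higher (28.6%, against 1.77% of all genes) and 4 lower (28.6%, against 7.88%).

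Auxin genes were called about as often as all genes. Of 53 Aux/IAA, GH3 and SAUR genes, 5 were lower (9.43%, against 7.88% of all tested genes) and 1 was higher (1.89%, against 1.77%). Without replicate 1 or 3 of 35S::PIF4 or of Col-0, 2 or 3 were lower, and without replicate 4 of 35S::PIF4 or replicate 1 or 4 of Col-0, 2 or 3 were higher. With the length trend removed, 3 were lower and 5 higher. Of the study's 18 auxin genes 17 were tested; only GH3.4, an auxin conjugating enzyme, was called, at 0 to 0.0998 CPM against 0.419 to 0.696 CPM. GH3.3 was at 20.5 to 22.7 CPM against 9.9 to 13.9 CPM, without overlap but under the fold threshold (log2 fold change 0.91). The SAUR19 to SAUR24 genes are near-identical copies whose split is uncertain. Of 7 auxin biosynthesis genes only YUC (AT4G32540) was called, at 1.77 to 2.46 CPM against 0.465 to 1.27 CPM, and not without replicate 2 of Col-0.

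Gibberellin oxidases moved in both directions, with 3 of 9 higher (33.3%, against 1.77% of all genes) and 1 lower (11.1%, against 7.88%). Without any 1 of the 8 libraries 2 were lower. Of the inactivating enzymes, GA2OX1 was at 3.43 to 4.21 CPM against 0.774 to 1.21 CPM, while GA2OX7 was at 0.0777 to 0.186 CPM against 1.35 to 1.65 CPM. GA3OX1, which makes active gibberellin, rose by 1.06 on the log2 scale, but was not called without replicate 4 of Col-0 (log2 fold change 0.90) or with the length trend removed (0.98). In the wall, XTH24, a xyloglucan endotransglucosylase, was at 3.96, 2.73, 3.22 and 5.62 CPM against 31.5, 35.3, 31 and 29.5 CPM (8.2-fold lower, log2 fold change -3.06, SE 0.272), and XTH22 at 5.62 to 7.3 CPM against 22.9 to 26.7 CPM. Of 37 expansin and XTH genes, 7 were lower (18.9%, against 7.88% of all genes) and 3 higher (8.11%, against 1.77%).

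Of the 7 genes that the study listed for miRNA pathways, chosen on these samples, 2 were higher and 1 lower. Over all tested genes 1.77% were higher and 7.88% lower. SPL9 (AT2G42200), a transcription factor targeted by miR156, was at 166, 172, 161 and 153 CPM against 75.1, 75.1, 70.2 and 71.8 CPM, and SPL5 at 23.8 to 26.5 CPM against 9.9 to 10.6 CPM. The precursor locus MIR156D (AT5G10945) was at 0.0998 to 0.232 CPM against 0.581 to 1.02 CPM (log2 fold change -2.23, SE 0.376, edgeR adjusted p = 2.14e-05). Polyadenylated RNA was sequenced, so this is precursor and not mature miRNA. AGO1, DCL1 and MIR160C were not called.

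Of 46 photosystem genes 4 were higher (8.7%, against 1.77% of all genes) and none lower, and the sum was 16671 to 20454 CPM against 13163 to 13472 CPM. LHCB2.2, a light-harvesting antenna protein, was at 387, 448, 357 and 497 CPM against 174, 163, 162 and 165 CPM, and phyB at nAT had 410 ± 9.78 CPM (SD, n = 4). Only 2 photosystem genes were called once the length trend was removed. Cytosolic ribosomal protein genes summed to 72601 to 78803 CPM against 52529 to 54135 CPM, with a median log2 fold change of 0.49. Libraries did not overlap at 192 of 206, against 49% of all genes. Of the 206, 4 were called higher (1.94%, against 1.77% of all genes) and 3 lower (1.46%, against 7.88%). Without the length trend 18 were called higher. DNA replication genes had a median log2 fold change of 0.58 with 11 of 12 not overlapping, against 49% of all genes, and none called. MCM2, a helicase subunit, was at 91.5 to 116 CPM against 72.4 to 74.8 CPM. Mitotic genes and kinesins gave no call, at medians of 0.12 and 0.03.

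Among 9 tested salicylic acid genes 3 were higher (33.3%, against 1.77% of all genes) and none lower. PR5, a salicylic acid marker, was at 59, 75.6, 63.1 and 74.4 CPM against 23.1, 22.7, 23 and 24.7 CPM (2.91-fold), and PR1 and NIMIN-1 were called higher from low counts. BGL2 and SARD1 had log2 fold changes of -2.24 (SE 1.07) and -1.03 (SE 0.819) without being called, and DESeq2 called 1 gene of this list lower. Of 10 jasmonate genes 2 were lower (20%, against 7.88%). TIFY10A (JAZ1), a repressor of the pathway, was at 11.7 to 16.7 CPM against 33.5 to 36.9 CPM, and AOC1, which makes its precursor, was lower as well (log2 fold change -1.34). The storage protein gene VSP2 was at 742 to 1141 CPM against 1699 to 1773 CPM, just under the fold threshold, which it passed without replicate 4 of 35S::PIF4 (log2 fold change -1.09) and with the length trend removed (-1.04), while VSP1 was at 6084 to 7072 CPM against 4460 to 4522 CPM. Of 11 clock genes 2 were higher (18.2%, against 1.77% of all genes) and 1 lower (9.09%, against 7.88%). Of the 2 higher genes, APRR9 stood at a log2 fold change of 1.00, and the count was 1 in most alternatives. APRR7 was at 108 to 125 CPM against 54.6 to 59.3 CPM (log2 fold change 1.07), and ELF4 was lower at 0.0929 to 0.421 CPM against 0.744 to 1.48 CPM. The morning genes LHY and CCA1 were not called. Chloroplast genome transcripts were higher in 2 of 63 cases (3.17%, against 1.77% of all genes). Mitochondrial ones were lower in 12 of 34 (35.3%, against 7.88%). With the length trend removed these counts were 9 and 7.

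Some genes, chosen after their values were seen, had levels that went with genotype at both temperatures. AT1G75945 (chr1:28515245-28515916) had no count in 35S::PIF4 at nAT and 20 to 24.2 CPM in Col-0 at hAT, at least 719-fold lower. It was at 0.0231 CPM on average in 35S::PIF4 at hAT and 33.7 CPM in Col-0 at nAT. The unannotated transcript with the largest rise (chr5:14075560-14090005) was at 23.8, 27.3, 25.8 and 25 CPM against 0.0423 to 0.116 CPM, with 34.5 CPM in 35S::PIF4 at hAT and 0 in Col-0 at nAT. AT3G05955 had no count in Col-0 at hAT and 2.32 to 4.89 CPM in 35S::PIF4 at nAT (at least 118-fold higher). AT5G55270 and AT1G64795 were high in both 35S::PIF4 groups and low in phyB and Col-0, at 6.87 to 8.3 CPM against 0.279 to 0.812 CPM and at 5.79 to 8.52 CPM against 0 to 0.155 CPM (AT1G64795 log2 fold change 7.27, and 10.33 without replicate 4 of Col-0, the only Col-0 library at hAT with a count). Overexpression of PIF4 and any other difference between the transgenic line and Col-0 cannot be told apart at these genes. The sources do not state the strand setting of the counting, so reads of an overlapping antisense gene cannot be told apart.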

How the data were processed

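PolyA RNA of 24 pistil libraries was sequenced as 150-bp read pairs. The counts, deposited by the authors as whole numbers without normalization, came from featureCounts run on trimmed reads over TAIR10 with the Araport11 annotation. Neither aligner nor strand setting was found in the sources. A deposited FPKM table was not used, and 0 value columns of the count table were left out. Gene positions in the deposited table equalled the reference annotation for 32532 of 32548 nuclear genes.

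Groups were taken from the labels. Of 33055 genes, those passing filterByExpr by group were tested in edgeR 4.0.16 (R 4.3.3, limma 3.58.1), with TMM normalization, 6 group means over all 24 libraries and a robust quasi-likelihood fit (18 residual degrees of freedom). Genes were called at a Benjamini-Hochberg adjusted p under 0.05 and a log2 fold change of at least 1 in size, for 35S::PIF4 at nAT minus Col-0 at hAT. The paper calls the replicates biological, but whether they were separate plants is not stated, so p-values measure the spread between these libraries. Distances used log2 CPM with a prior count of 2 and an exact permutation test. Groups at 0 were set to a floor of 3 counts, and counting intervals are exact at 95%. Depth was 19868048 to 30184035 counts a library, so 1 count weighs more on genes of low level.

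Named genes were the 15 largest rises and falls that carry a symbol, reach a mean of 5 CPM in 1 group and keep both groups apart, together with PIF4, PHYB, the study's lists and up to 6 members of each gene list. Members and lists were chosen with earlier results of these data known. Chosen after their values were seen were the ECA1 and DUF784, defensin-like, S1, thionin and inhibitor families, taken by annotation, and AT1G75945, the unannotated transcript, AT3G05955, AT5G55270, AT1G64795, FER, LRE, EC1.4, HAP2, CHS, CHI1, FLS1, TT10, TT2, TT8, KIN2, COR47, RALFL34, PIF5 and PIL1. Alternatives were RLE size factors, no filter, the 8 libraries alone, no Col-0 nAT libraries, a per-library length offset, a replicate block, DESeq2 1.42.0 and leaving out each library. Scripts were tested on simulated data.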

Additional observations from a re-analysis of the deposited data

Results flagged for a closer look

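In groups of 4 libraries, a value was picked out when its gap to the nearest other value exceeded Dixon's 95% limit, which chance passes in about 1 of 20 groups. Of 242 groups examined, 14 passed, 10 of them in 35S::PIF4 at nAT, where replicate 4 gave 6. Replicate 4 stood above the others for LURE1.3 (0.418 CPM against 0 to 0.0665 CPM), AT1G57760 (0.232 CPM against 0 to 0.0333 CPM) and LCR65 (0.0464 CPM, a single count, against 0), and below them for GH3.3 (20.5 CPM against 22.5 to 22.7 CPM), CHI1 (145 CPM against 184 to 190 CPM) and FLS1 (379 CPM against 496 to 519 CPM).

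Replicate 2 was high for PIF4 (6.39 CPM against 5.71 to 5.81 CPM) and low for APRR7 (108 CPM against 123 to 125 CPM). Replicate 3 was high for AP3 (39.2 CPM against 34.1 to 34.5 CPM), and replicate 1 had no EC1.2 count (0 CPM against 0.194 to 0.233 CPM). In Col-0 at hAT, replicate 4 was low for SAUR24 (1.05 CPM against 1.35 to 1.39 CPM) and FKBP65 (21 CPM against 23 to 23.4 CPM) and high for AT1G64795 (0.155 CPM against 0), and replicate 1 was high for TT2 (1.66 CPM against 1.27 to 1.3 CPM).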

How the results depend on the processing

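No named gene reversed direction. Of 91 called among 120 named genes, 85 stayed called under every alternative run, and the exceptions stand beside their values. Lower genes ranged from 1517 (8 libraries alone) to 2056 (no filter), with 2045 in DESeq2, and from 1602 to 1870 with a library left out. Higher genes ranged from 333 (8 libraries alone) to 530 (length offset), and from 349 to 423 with a library left out. Of the phyB warm-induced genes 699 to 762 were lower. Samples sharing a replicate number had deviations correlated at -0.027 to 0.035, so numbers do not pair samples. A replicate block gave 1677 lower and 374 higher genes, 1662 and 373 of them shared with the fit without the block, and 701 warm-induced genes. The block with length offset gave 1701 and 523.

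The distance from warm Col-0 exceeded that of phyB at nAT by 0.126 to 0.178 with a 35S::PIF4 library left out and by 0.146 to 0.147 with a Col-0 library left out. It was 0.145 to 0.147 without 1 phyB library, where the exact p was 0.0571. Other scales gave 0.0649 (median absolute difference) to 0.199 (prior count of 0.5). Counts of a few per library limit the fold changes of embryo sac genes in 35S::PIF4.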
